A study of Mus musculus with 6 samples.

Results

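Ephrins, semaphorins and their receptors were measured on 6 Affymetrix mouse arrays, 1 for each culture of a study that asked how the transcriptional regulator PRDM14 returns primed mouse cells to a naive state. Members were all genes whose symbol, on probe sets with 1 symbol, starts with *Efna*, *Efnb*, *Epha*, *Ephb*, *Sema* or *Plxn*, together with *Nrp1* and *Nrp2*. They were 52 of the 17097 genes with such a probe set, and were read by 107 probe sets. They comprise 4 ephrin-A and 3 ephrin-B ligands, 9 EphA and 4 EphB receptors, 20 semaphorins, 2 neuropilins and 10 plexin symbols, 1 of which, *Plxna4os1*, names an opposite-strand transcript at *Plxna4*. Where a gene had several probe sets, the one of highest mean signal stands for it. *Efna3* and *Ephb2* were not analysed here. All cultures come from E14tg2a, a mouse ESC line. By the study's methods, the line carried a doxycycline-inducible *Prdm14* cassette placed by piggyBac, and colonies were picked after selection, so that it may be 1 clone. The KD was by lentiviral short hairpin RNAs against *Tet1* and *Tet2*, which encode enzymes that oxidize methylated cytosine.

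The groups were ESCs, for which the labels give no genotype, EpiLCs (d2) and EpiLCs (d4), both labelled Scramble, EpiLCs + PRDM14, labelled Scramble + PRDM14, KD EpiLCs (d2), labelled Tet1/Tet2 KD, and KD EpiLCs + PRDM14, labelled Tet1/Tet2 KD + PRDM14. EpiLCs are epiblast-like cells, a model of the primed epiblast, made from ESCs with activin A and bFGF on fibronectin for 2 days. They were then replated in GK15 medium, with or without doxycycline. A difference of a PRDM14 array from day 2 thus also spans the replating and the change of medium. The labels give no day for either culture with PRDM14. Below, day 2, day 4 and "with PRDM14" name the scramble EpiLCs unless KD is stated. The first 3 comparisons of ESCs, day 4 and PRDM14 with day 2 share the same day 2 array. With 1 array per condition there is no replicate check, so no p-value is given, and a gene is called higher or lower when 2 arrays differ by at least 1.5-fold, the study's own cut-off (0.585 on the log2 scale). Values are log2 signals of robust multi-array average (RMA), and every difference below is a log2 difference.

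The columns labelled KD have medians of 5.07, against 5.28 to 5.29 in the others, and may come from a separate normalization. All levels of the KD arrays below are therefore raised by 0.21, to the median of EpiLCs (d2). *Prdm14* read 6.96 in ESCs, 5.04 at day 2, 5.18 at day 4 and 4.95 with PRDM14, and 5.06 and 4.91 in the arrays labelled KD, so its probe set was not higher in either array named for PRDM14. *Tet2* read 8.54 in EpiLCs (d2) and 8.71 in the KD array of that day, and 8.51 in EpiLCs + PRDM14 against 7.97 in its counterpart, while *Tet1* was not analysed here. A dimmer *Tet2* probe set differed by 0.21 at day 2 and by -0.17 with PRDM14, KD minus scramble. *Tet3* was higher in both KD arrays, by 0.70 and 0.69. Whether the *Prdm14* probe set reads the inducible cassette was not tested. The study itself followed *Prdm14* by qRT-PCR in both backgrounds, and checked the KD by qRT-PCR and western blotting. Names with PRDM14 and KD are used here as labels of arrays throughout. In ESCs, all 9 naive markers (*Prdm14* among them), such as *Klf4* and *Esrrb*, were higher relative to EpiLCs (d2). Of the 8 primed markers, 4 such as *Pou3f1* were lower in ESCs. The 5 core genes such as *Pou5f1* had a mean signal of 10.00 to 10.26 in every array. Of these 5, however, 2 passed 1.5-fold in at least 1 of 7 comparisons. *Lin28a* was at -0.86 in ESCs and at 0.66 at day 4, both relative to day 2. With PRDM14, *Lin28a* was at -1.03 and *Sox2* at 0.70 relative to day 4. Some markers of other cell types were past 1.5-fold in any of 7 comparisons, where 16.7% of all genes were. They were 1 of 6 for streak and mesoderm, 0 of 6 for endoderm, 1 of 5 for neural cells and 2 of 6 for neural crest. For endothelium they were 1 of 5, for trophoblast 1 of 6 and for fibroblasts 3 of 6. Mean list signals lay between 4.38 and 6.03, but single markers departed from them. The neural marker *Tubb3* read 8.05 in ESCs, 5.94 at day 2 and 8.25 with PRDM14. The trophoblast marker *Krt7* read 4.87 at day 2 and 6.05 at day 4.

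Ephrins are membrane-bound ligands. The A class is held by a lipid anchor and the B class spans the membrane and can signal back into its own cell, while Eph receptors are receptor tyrosine kinases, so that contact between cells can send signals both ways and sort cells into separate domains. Semaphorins are secreted (class 3), transmembrane (classes 4 to 6) or lipid-anchored (class 7) ligands of the plexins, large receptors that act on small GTPases, and class 3 ligands mostly need a neuropilin as co-receptor. Both systems are best known for steering axons and blood vessels.

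Of the 52 genes, 9 were past 1.5-fold in at least 1 of the 7 comparisons (17.3%), where 16.7% of all genes were. These were *Efna2*, *Efnb1*, *Efnb2*, *Efnb3*, *Epha1*, *Epha2*, *Epha4*, *Sema4c* and *Plxnb3*. All 3 ephrin-B ligands were among them, but no EphB receptor, no neuropilin and no class 3, 5, 6 or 7 semaphorin was. Over ESCs and the 3 scramble EpiLC arrays, whose columns have nearly the same median, 4 genes had a range past 1.5-fold (7.69%, and 11.9% of all genes), namely *Efnb2*, *Sema4c*, *Epha1* and *Epha4*. The median range over these 4 arrays was 0.21 for the members and 0.20 for all genes.

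Promoter windows are shown for these 4 genes, because DNA demethylation at CpG sites is the subject of the study and 3 of them were lower with PRDM14. The study measured methylation at enhancers or binding regions of pluripotency genes and makes no statement on these promoters. Each runs from 250 bases before to 50 bases after an annotated start in RefSeq, build GRCm38.p6, is written 5′ to 3′ on the strand of the gene, and has its CpG dinucleotides in capitals. *Sema4c* has 2 annotated starts, and the arrays do not show which one was used.
*Efnb2*, chr8:8661193-8661492, minus strand: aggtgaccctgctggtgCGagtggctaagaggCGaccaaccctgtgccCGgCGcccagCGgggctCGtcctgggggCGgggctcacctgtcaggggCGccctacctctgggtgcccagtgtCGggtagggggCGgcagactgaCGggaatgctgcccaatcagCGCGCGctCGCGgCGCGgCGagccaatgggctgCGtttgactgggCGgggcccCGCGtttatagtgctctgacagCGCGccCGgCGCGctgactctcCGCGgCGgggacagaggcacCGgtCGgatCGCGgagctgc
*Sema4c*, first start, chr1:36558332-36558631, minus strand: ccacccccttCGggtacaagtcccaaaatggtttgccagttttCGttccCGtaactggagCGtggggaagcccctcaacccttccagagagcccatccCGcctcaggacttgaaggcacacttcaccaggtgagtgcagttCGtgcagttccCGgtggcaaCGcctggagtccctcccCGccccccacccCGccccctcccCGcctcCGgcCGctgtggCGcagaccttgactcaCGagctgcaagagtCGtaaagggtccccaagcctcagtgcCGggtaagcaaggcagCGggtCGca
*Sema4c*, second start, chr1:36557508-36557807, minus strand: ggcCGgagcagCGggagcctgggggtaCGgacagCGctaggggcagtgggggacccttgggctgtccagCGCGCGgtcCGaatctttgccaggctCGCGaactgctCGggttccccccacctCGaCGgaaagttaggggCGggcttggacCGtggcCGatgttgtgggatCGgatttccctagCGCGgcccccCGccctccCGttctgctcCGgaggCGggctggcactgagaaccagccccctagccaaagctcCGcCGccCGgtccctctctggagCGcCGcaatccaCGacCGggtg
*Epha1*, chr6:42373219-42373518, minus strand: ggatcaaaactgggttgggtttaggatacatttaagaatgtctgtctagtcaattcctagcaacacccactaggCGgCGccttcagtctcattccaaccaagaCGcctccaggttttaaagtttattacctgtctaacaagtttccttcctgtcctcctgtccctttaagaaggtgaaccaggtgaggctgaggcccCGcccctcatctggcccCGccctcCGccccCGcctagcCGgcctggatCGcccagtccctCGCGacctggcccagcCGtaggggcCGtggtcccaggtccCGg
*Epha4*, chr1:77515039-77515338, minus strand: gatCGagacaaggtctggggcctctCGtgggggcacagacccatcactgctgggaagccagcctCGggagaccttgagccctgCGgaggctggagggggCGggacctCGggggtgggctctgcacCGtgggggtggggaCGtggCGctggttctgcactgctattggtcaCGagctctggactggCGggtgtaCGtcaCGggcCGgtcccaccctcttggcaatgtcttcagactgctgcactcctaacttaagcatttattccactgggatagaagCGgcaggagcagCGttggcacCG

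The *Efnb2* window holds 35 CpGs, those of *Sema4c* 19 and 30, that of *Epha4* 17 and that of *Epha1* 14. RefSeq windows were found for 45 of the 52 genes, 58 windows in all. They had a median of 18.5 CpGs and a C+G content of 64.0%, against 7 CpGs and 52.7% in all 32851 windows. The latter belong to 27025 genes and are not limited to genes read by the arrays. Sequences were searched on both strands for the letters of a few known motifs. The GC box GGGCGG, a site of Sp factors, was in 44 of the 58 windows (75.9%) and in 35.7% of all windows, and its letters contain a CpG. *Efnb2* alone held the TATA letters TATAAA, in 1 of 58 windows (1.72%, and 13.6% of all), and there on the strand opposite to the gene. The E-box CACGTG was in 4 windows (6.90%, and 7.15% of all). Neither the octamer ATGCAAAT, read by OCT3/4 and its relatives, nor the letters GGTCTCTAA of a published PRDM14 motif occurred in any of the 58 windows. They were in 1.74% and 0.256% of all windows. No methylation was measured in these files.

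**Figure D1:**
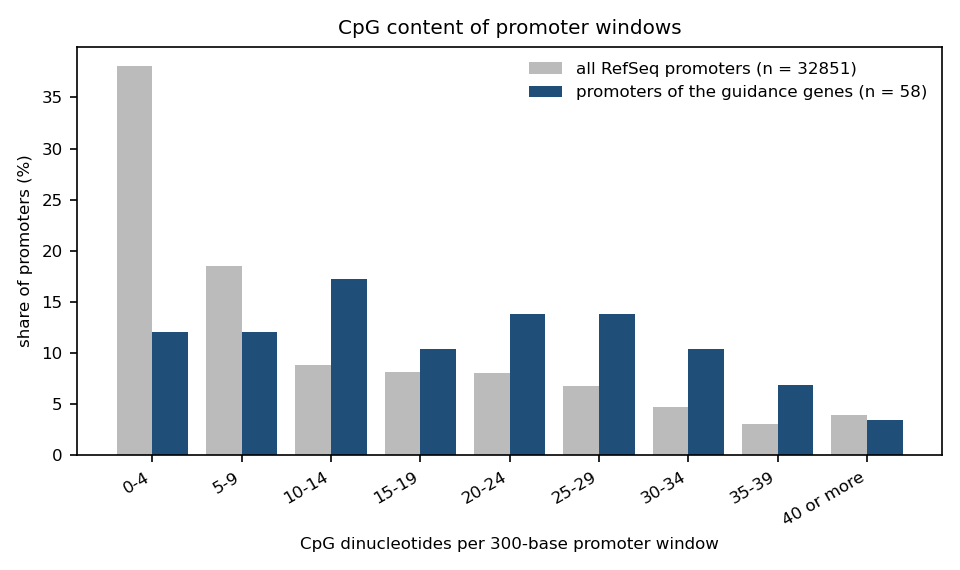
Share of 300-base promoter windows, in percent, by the number of CpG dinucleotides they hold, for all 32851 RefSeq windows (grey) and the 58 windows of the guidance genes (blue). Windows with 0 to 4 CpGs make up 38.0% of all windows and 12.1% of those of the guidance genes.

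The ligand *Efnb2* had the largest range of the 52 genes. It encodes ephrin-B2, the ligand of EphB4 on arterial cells and of several other Eph receptors. Its signal was 6.11 in ESCs, 8.70 at day 2, 9.22 at day 4 and 7.89 with PRDM14. The arrays labelled KD read 8.38 at day 2 and 7.81 with PRDM14. ESCs were thus 6.01-fold below EpiLCs (d2), a difference of -2.59. EpiLCs + PRDM14 lay below both scramble EpiLC cultures, by -0.81 from day 2 and by -1.33 from day 4, but remained above ESCs. In the pair labelled KD the difference with PRDM14 was -0.58, just inside the threshold. A second probe set of *Efnb2* read 6.59, 8.24, 8.89 and 7.65 in ESCs, at day 2, at day 4 and with PRDM14, and gave -1.65 for ESCs, 0.65 for day 4 and -0.59 for PRDM14 relative to EpiLCs (d2). Another pair of its probe sets stayed between 4.71 and 5.49 and moved by at most 0.22 in any comparison. In a whole culture, fewer cells with a transcript and less of it per cell cannot be told apart.

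*Sema4c*, which encodes a transmembrane semaphorin that binds plexin-B2, had its lowest signal with PRDM14. It was at 5.42 in ESCs, 6.16 at day 2, 6.08 at day 4 and 4.89 with PRDM14. In the arrays labelled KD it was at 6.61 and, with PRDM14, at 6.18. The array of EpiLCs + PRDM14 therefore lay below that of ESCs. The difference from EpiLCs (d2) was -1.27, or 2.41-fold, and that from EpiLCs (d4) was -1.19. The pair labelled KD differed by -0.43, within the threshold, and KD EpiLCs + PRDM14 was 2.45-fold above EpiLCs + PRDM14 (1.29). *Sema4c* has a single probe set, and its receptor gene *Plxnb2* moved by at most 0.17 in the same 7 comparisons.

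**Figure D2:**
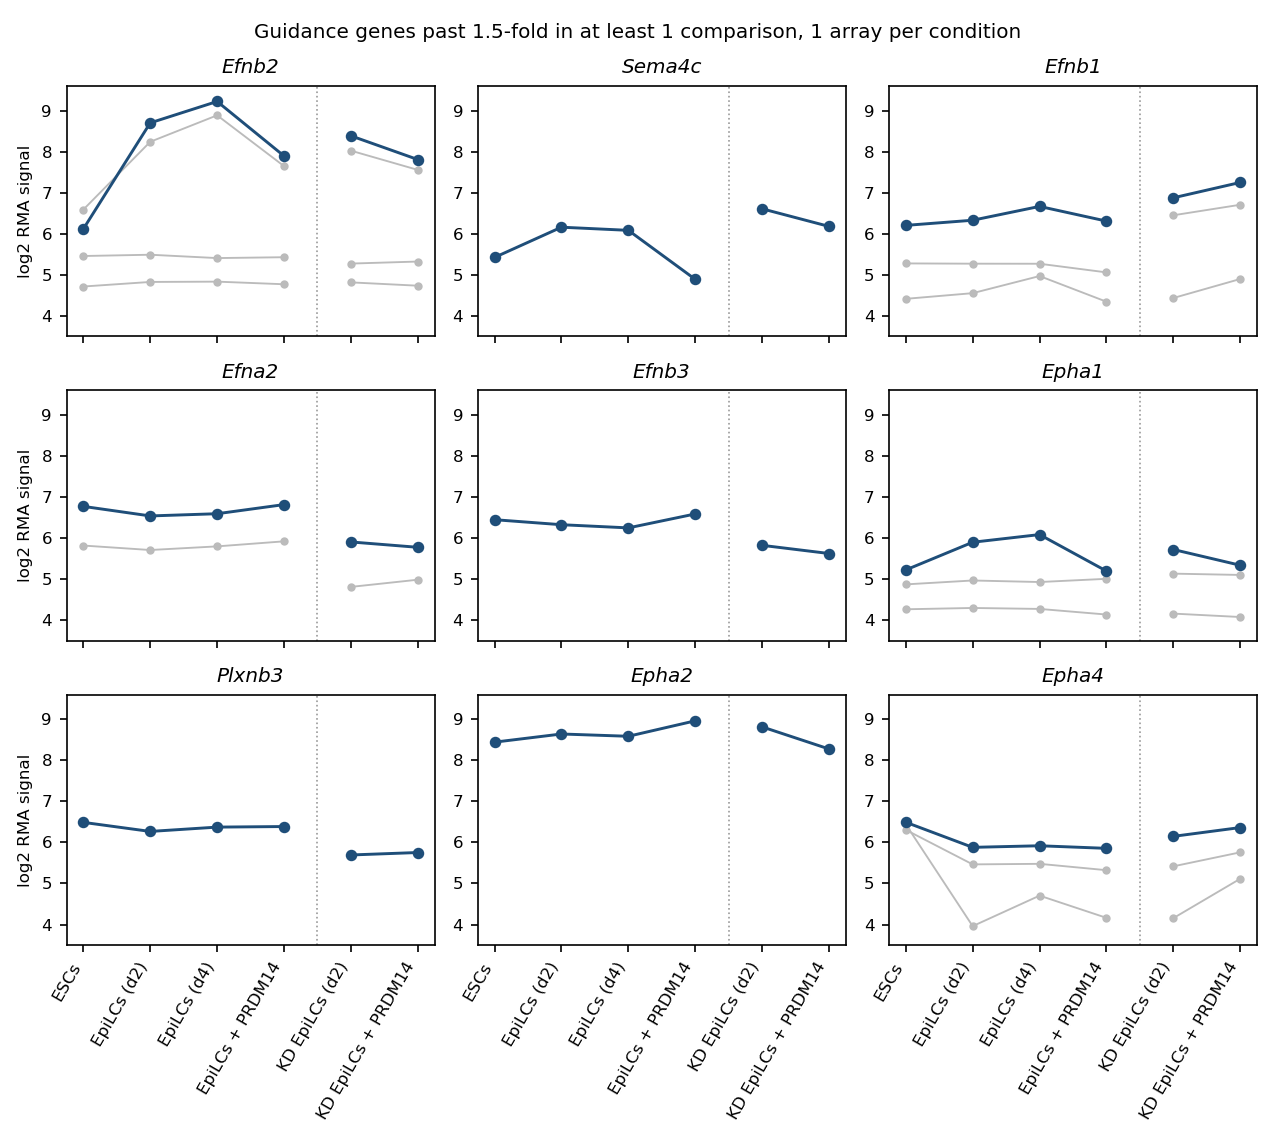
Log2 RMA signal of the 9 guidance genes past 1.5-fold in at least 1 comparison, in each of 6 arrays, with 1 array per condition and the KD arrays raised to the median of EpiLCs (d2). Dark lines are the probe set that stands for the gene, grey lines its other probe sets, and the dotted line sets off the arrays labelled KD. *Efnb2* runs from 6.11 in ESCs to 9.22 in EpiLCs (d4), and each probe set of *Epha4* is highest in ESCs.

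Among the EphA receptors, *Epha1* was higher in EpiLCs and *Epha4* in ESCs. *Epha1*, the first Eph receptor gene to be cloned and one expressed in epithelia, was at 5.22 in ESCs, 5.90 at day 2, 6.08 at day 4 and 5.19 with PRDM14. It was at 5.72 and 5.34 in the arrays labelled KD. ESCs and EpiLCs + PRDM14 were near each other and below the EpiLCs without PRDM14, by -0.68 and -0.70 relative to day 2, and the difference between EpiLCs + PRDM14 and EpiLCs (d4) was -0.89. The difference in the KD pair was -0.38. The other probe sets of *Epha1* were dimmer, between 4.07 and 5.13, and none passed the threshold in any comparison. With the median over its 3 probe sets, *Epha1* changed sign with PRDM14, to 0.041 relative to day 2 and 0.078 relative to day 4.

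*Epha4* encodes a receptor that binds ligands of both ephrin classes. Its brightest probe set read 6.49 in ESCs and 5.88, 5.92 and 5.86 at day 2, at day 4 and with PRDM14, with 6.15 and 6.36 in the KD arrays. The excess in ESCs was 0.61 at this probe set, 0.84 at the second and 2.48 at the third, or 1.53-fold to 5.59-fold. The third probe set read 6.44 in ESCs, 3.96 at day 2, 4.70 at day 4 and 4.16 with PRDM14. All 3 thus had their highest signal in ESCs, and none differed past 1.5-fold between EpiLCs + PRDM14 and either scramble EpiLC culture. In the KD pair the third probe set was higher with PRDM14 by 0.96, from 4.16 to 5.12, where the brightest was higher by 0.22.

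*Epha2*, the gene of an ephrin-A receptor found in epithelia and in ESCs, had its highest signal with PRDM14 in the scramble arrays. It was at 8.45 in ESCs, 8.65 at day 2, 8.59 at day 4 and 8.97 with PRDM14. The KD arrays read 8.82 at day 2 and 8.28 with PRDM14. With PRDM14 it was thus 0.32 above EpiLCs (d2) in the scramble pair and at -0.54 in the pair labelled KD. Neither passed 1.5-fold, and the difference between KD EpiLCs + PRDM14 and EpiLCs + PRDM14 was -0.69.

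For ESCs against EpiLCs (d2), 1 of the 52 genes was higher (1.92%, and 2.7% of all genes), *Epha4*, and 3 were lower (5.77%, and 2.32% of all genes), *Efnb2*, *Epha1* and *Sema4c*. The members' median difference was -0.01, and that of all genes 0.01. *Sema4d*, which encodes a ligand of plexin-B1, was at -0.32 and its receptor gene *Plxnb1* at -0.02. At the probe sets that stand for the genes, these 2 arrays thus differed past the threshold in 1 ephrin, 2 Eph receptor genes and 1 semaphorin. No plexin or neuropilin passed it. A dimmer probe set of *Epha7* was also lower in ESCs (-0.74), and *Epha1* was at -0.10 with the median over its probe sets.

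From day 2 to day 4 without PRDM14, none of the 52 genes passed the threshold in either direction at the probe set that stands for it, while 2.17% of all genes were higher and 1.13% lower. The largest differences were those of *Efnb2* (0.52), *Sema3e*, which encodes a class 3 ligand that binds plexin-D1 without a neuropilin (0.38), and *Efna1*, the gene of a high-affinity ligand of EphA2 (-0.37). Another probe set was past 1.5-fold higher at day 4 in 3 genes, by 0.80 in *Sema3e* (from 4.27 to 5.08), by 0.74 in *Epha4* and by 0.65 in *Efnb2*, and *Plxnd1* was within 0.12 of its day 2 level. With PRDM14 that probe set of *Sema3e* read 4.35, at -0.72 relative to day 4.

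With PRDM14, no member was higher than in EpiLCs (d2) past 1.5-fold, where 2.73% of all genes were. The 3 lower members (5.77%, and 1.91% of all genes) were *Sema4c*, *Efnb2* and *Epha1*. Of these calls 1, *Sema4c*, was left at a 2-fold threshold and with the median over a gene's probe sets. Among genes with a mean signal of at least 6, 1 was left, *Efnb2*, as *Sema4c* and *Epha1* are dimmer. No call thus held under all of these settings. Relative to EpiLCs (d4), again none was higher (1.88% of all genes). *Sema4c*, *Efnb2* and *Epha1* were the 3 lower ones (5.77%, and 2.15% of all genes). At 2-fold 2 were left, and with a mean signal of at least 6, 1 was. With the median over probe sets 3 members were lower, but *Epha1* was not among them, at 0.078. Both comparisons use the array of EpiLCs + PRDM14. A dimmer probe set of *Epha7*, which encodes an ephrin-A receptor, read 4.65 in ESCs, 5.39 at day 2, 5.83 at day 4 and 4.94 with PRDM14, a difference of -0.89 from day 4, while its brightest probe set stayed between 5.80 and 5.84 in these 4 arrays. With PRDM14, 8 of 9 naive markers were higher than in EpiLCs (d2) and 5 of 8 primed markers lower, and their part in the differences of these genes was not tested.

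**Figure D3:**
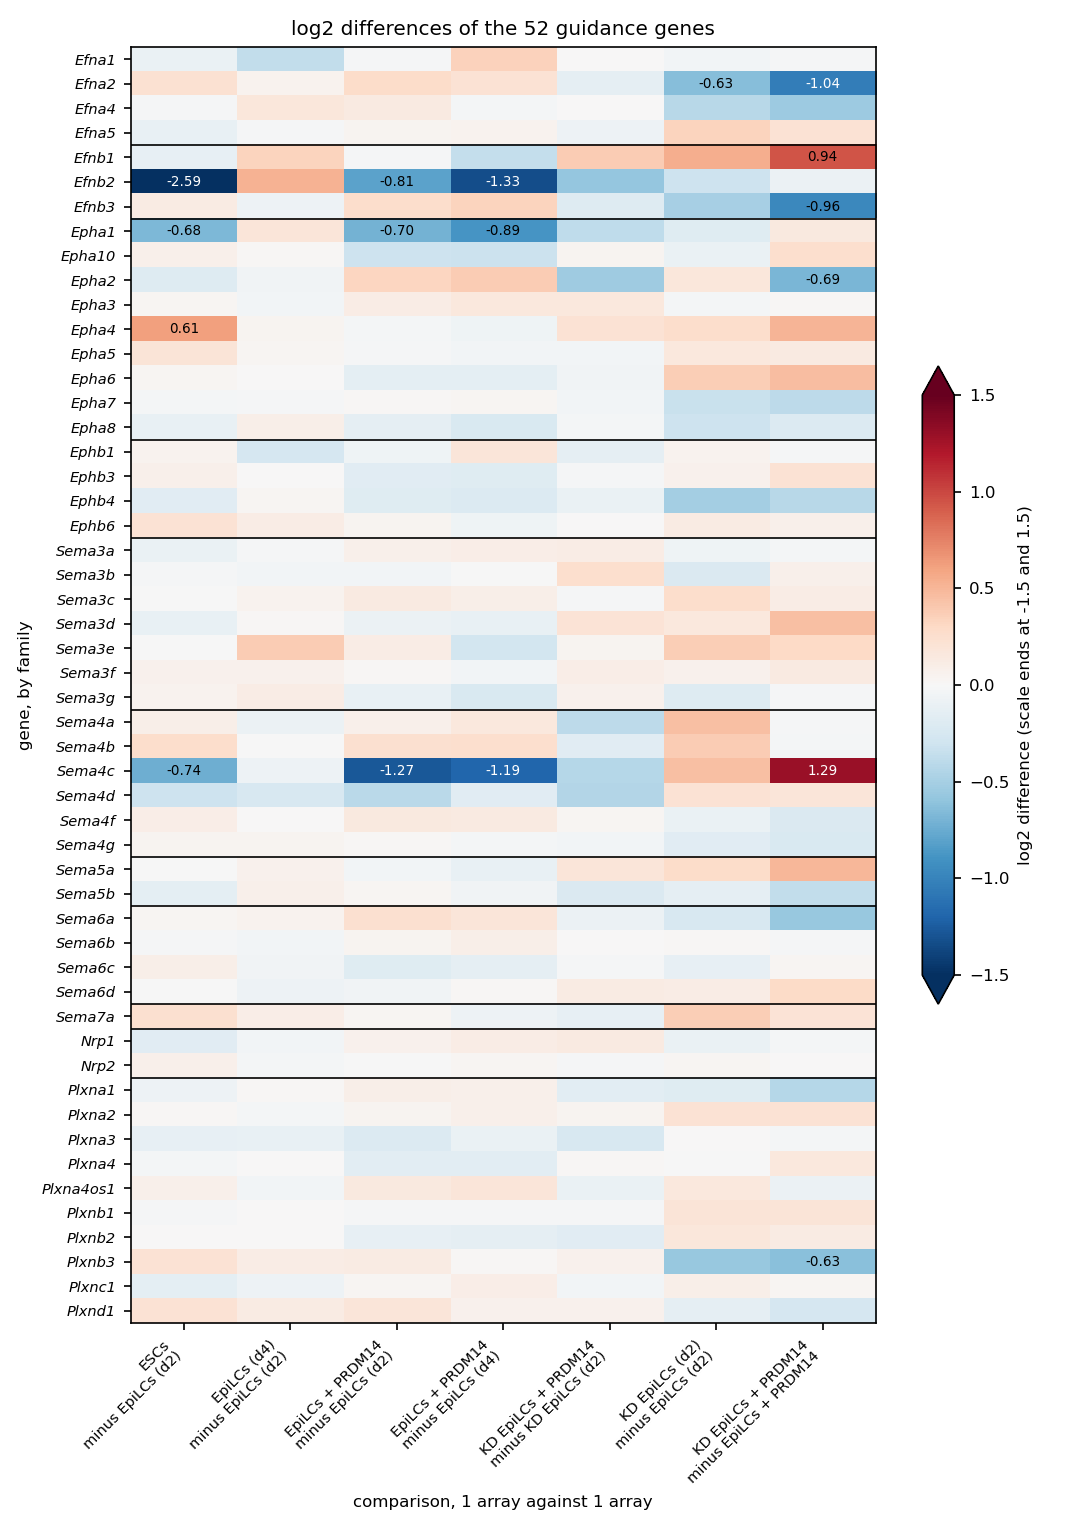
Log2 differences of the 52 guidance genes, in rows by family, in 7 comparisons of 1 array with 1 array, in columns, with numbers where the difference is past 1.5-fold. Colours end at -1.5 and 1.5, so that *Efnb2* at -2.59 in ESCs has the colour of the lower end, and most rows of semaphorins, neuropilins and plexins hold no number.

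In the pair labelled KD, no member passed 1.5-fold with PRDM14, either higher (2.13% of all genes) or lower (2.52%). The 4 most negative differences were those of *Efnb2* (-0.58), *Epha2* (-0.54), *Sema4d* (-0.44) and *Sema4c* (-0.43), and the most positive was that of *Efnb1* (0.38). There is no KD array of day 4, so PRDM14 and the later culture in GK15 medium cannot be told apart in this pair. It shares no array with the scramble pair. Across the 52 genes, the differences of the 2 pairs had a correlation of 0.39, and across all genes one of 0.64. It was -0.09 over the 49 genes other than *Efnb2*, *Sema4c* and *Epha1*. Those 3 were the members called lower in the scramble pair, so the correlated values themselves chose them, and nothing is concluded from their removal. With EpiLCs (d4) in place of EpiLCs (d2) in the scramble pair, the correlations were 0.31 for the members and 0.26 across all genes. Over the 49 genes it was then -0.35. Points are genes on the same arrays, not replicates. The responses of 2 members (3.85%) differed past 1.5-fold between the pairs, *Sema4c* by -0.84 and *Epha2* by 0.86, as did those of 3.25% of all genes.

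**Figure D4:**
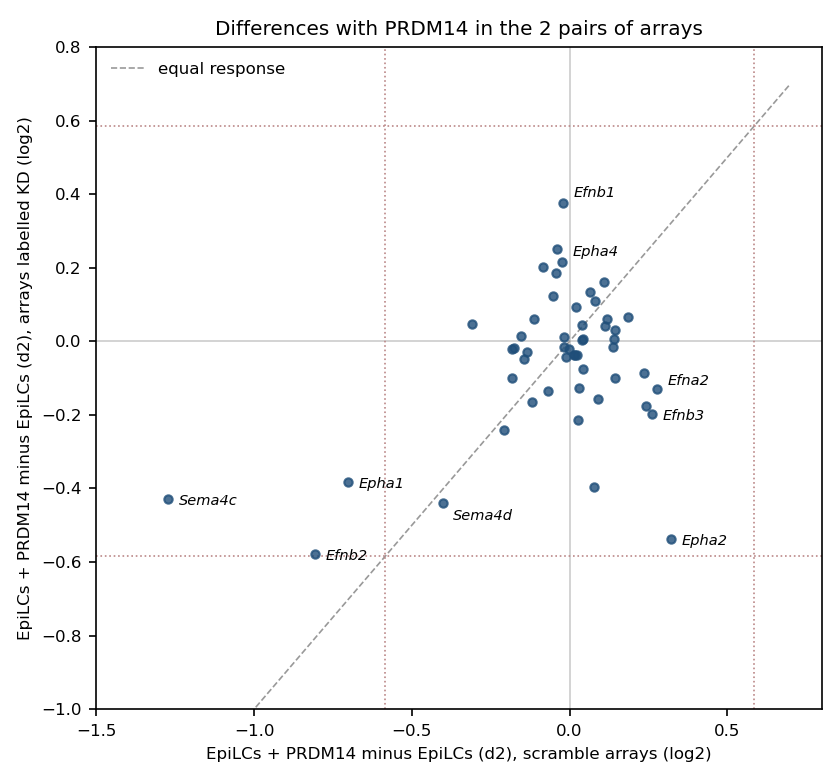
Log2 difference between EpiLCs + PRDM14 and EpiLCs (d2) for each of the 52 guidance genes, in the scramble arrays (horizontal axis) and in the arrays labelled KD (vertical axis), 1 array per condition. Dotted lines mark 1.5-fold and the dashed line equal differences. Cultures with PRDM14 had also been replated in GK15 medium, unlike those of day 2. *Sema4c* (-1.27 and -0.43), *Efnb2* (-0.81 and -0.58) and *Epha1* (-0.70 and -0.38) lie to the lower left, and *Epha2* (0.32 and -0.54) to the lower right.

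Comparisons of a KD array with its scramble counterpart rest on the shift of 0.21, and whether the KD columns were normalized apart from the others was not tested. If they were, that step and the KD label cannot be told apart. At day 2, *Efna2* was lower (1 of 52, 1.92%, and 2.25% of all genes) and none was higher (3.3% of all genes). In the cultures with PRDM14, *Sema4c* and *Efnb1* were higher (3.85%, and 3.58% of all genes), and *Efna2*, *Efnb3*, *Epha2* and *Plxnb3* were lower (7.69%, and 3.38% of all genes). Of the 52 genes, 18 were lower in both KD arrays than in their counterparts (34.6%, and 34.1% of all genes) and 21 higher in both (40.4%, and 41.0% of all genes). The day 2 arrays also differed in naive markers. Of 9, 4 were higher in the KD array, with a median of 0.57 against 0.03 for all genes, and 1 of 8 primed markers was lower. In the cultures with PRDM14, 2 of 9 naive markers were higher and 2 of 8 primed markers lower. Their part in the differences of the members was not tested.

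The probe sets that stand for the ephrin genes *Efnb1*, *Efna2* and *Efnb3* passed 1.5-fold in these comparisons and in no other. *Efnb1*, the X-linked gene of ephrin-B1, was at 6.20 in ESCs, 6.33 at day 2, 6.66 at day 4 and 6.31 with PRDM14, and at 6.87 and 7.25 in the KD arrays. Both KD arrays were above the 4 others. The excess over the scramble array was 0.55 at day 2 and 0.94 with PRDM14 at this probe set, and 1.18 and 1.65 at a second one, which read 5.05 to 5.27 in the 4 other arrays and 6.45 and 6.70 in the KD arrays. At the third probe set, the dimmest, the differences were -0.12 and 0.56, and the array with PRDM14 was at -0.63 relative to day 4.

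*Efna2*, the gene of an ephrin-A ligand known from retinal axon maps, was at 6.54 to 6.82 in ESCs and the scramble EpiLCs and at 5.91 and 5.77 in the KD arrays. Its differences were -0.63 and -1.04, and -0.90 and -0.93 at its other probe set. *Efnb3*, the gene of the midline ligand ephrin-B3, was at 6.25 to 6.59 in the 4 arrays and at 5.82 and 5.62 in the KD arrays, with differences of -0.50 and -0.96. *Plxnb3*, which encodes a receptor of semaphorin 5A, was at 6.27 to 6.49 and at 5.70 and 5.76, with differences of -0.57 and -0.63. In these 3 genes both KD arrays lay below all the others.

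The remaining 43 genes did not differ by more than 0.56 in any comparison, and their range over ESCs and the scramble EpiLCs was at most 0.40. By the family's brightest probe set, *Ephb3* was at 6.81 to 7.07 in the 6 arrays, *Sema3b* at 5.71 to 5.96, *Sema4b* at 7.59 to 7.98, *Sema5b* at 5.11 to 5.54, *Sema6c* at 7.80 to 8.07, *Sema7a* at 4.52 to 4.88, *Nrp2* at 5.35 to 5.46 and *Plxnb1* at 7.03 to 7.24. *Ephb4*, the receptor gene for ephrin-B2, was between 7.02 and 7.23 in ESCs and scramble EpiLCs, and read 6.70 and 6.60 in the KD arrays. Mean signals were at least 6 for 20 of the 52 genes (38.5%, and 49.1% of all genes), which included none of the class 3, 5 and 7 semaphorins and neither neuropilin. In 5 of the 43 genes, *Sema3e*, *Sema4b*, *Epha7*, *Plxna2* and *Sema6d*, a dimmer probe set passed 1.5-fold in at least 1 comparison.

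Among other genes of these pathways, 10 of 35 in other guidance systems, 7 of 26 downstream of Eph receptors and 8 of 26 of plexin signalling were past 1.5-fold in at least 1 of the 7 comparisons, where 16.7% of all genes were. The 35 genes of other guidance systems and shared partners were netrins, Slits, Robo receptors, RGM proteins, VEGF ligands, adhesion molecules and others. Of these, 3 were higher in ESCs than at day 2 (2.7% of all genes) and none lower (2.32% of all genes). With PRDM14 relative to EpiLCs (d2), 2 were higher (2.73% of all genes) and none lower (1.91% of all genes). Medians were 0.02 and -0.06. *Vegfc*, a ligand of VEGF receptors that also binds neuropilin-2, was at 7.42 in ESCs, 5.85 at day 2, 4.89 at day 4 and 5.69 with PRDM14. *Adam10*, the protease that cleaves ephrins, differed from EpiLCs (d2) by 0.56 in ESCs and by 0.82 in the KD array. Also among the 4 with the largest ranges were *Ptk7*, which codes for a pseudokinase receptor of the planar polarity pathway and passed in no comparison, and *Vegfb*, higher with PRDM14 by 0.62.

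Of the 26 measured genes that act downstream of Eph receptors and ephrins, 1 was higher and 1 lower in ESCs than in EpiLCs (d2). Of all genes, 2.7% were higher and 2.32% lower, and the median of the 26 was 0.04. With PRDM14 1 was higher (2.73% of all genes) and none lower (1.91% of all genes), with a median of 0.11. *Yes1*, a Src family kinase gene, was the higher one in both, by 1.57 and 0.61, and by 1.21 in the KD pair. The adaptor gene *Grb10* was the lower one, at -0.79 in ESCs. *Grb2*, another adaptor gene, was at 0.49 with PRDM14 in the scramble pair and at 0.65 in the KD pair. *Inppl1*, which codes for the lipid phosphatase SHIP2, passed in none of the 7 comparisons.

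Of the 26 measured genes of plexin signalling, 1 was higher (2.7% of all genes) and 1 lower (2.32% of all genes) in ESCs, with a median of 0.11. With PRDM14 2 were higher (2.73% of all genes) and none lower (1.91% of all genes), with a median of 0.03. *Mical1*, which encodes an oxidase that takes actin filaments apart, was at 6.21 in ESCs, 4.65 at day 2, 4.58 at day 4 and 5.53 with PRDM14. With PRDM14 it was 0.88 above EpiLCs (d2) in the scramble pair and at -0.76 in the KD pair. *Crmp1*, of the collapsin response mediator family, was at -1.21 in ESCs and at 0.01 with PRDM14, and at -0.93 in the KD pair. *Dpysl2*, its relative, was higher at day 4 by 1.74 and with PRDM14 by 1.30, both relative to EpiLCs (d2). Relative to EpiLCs (d4) it was at -0.45 with PRDM14.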

How the data were processed

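Total RNA of 6 cultures was amplified and labelled (3' IVT Express Kit) for MG-430 PM array strips. The deposited values are log2 signals per probe set, which the authors made by RMA with default settings in Affymetrix Expression Console (version not given in the sources used here). RMA corrects the background, equalizes the distributions of the arrays and sums probes on the log2 scale, so that shared shifts of all genes are removed. The number of arrays, 1 per condition, limits the precision.

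Of 45141 probe sets, 104 controls were left out. GEO's platform annotation gives 1 symbol for 28898, several for 551 and none for 15588. The probe set of highest mean signal stands for a gene. Values were subtracted as deposited, and after a shift to the median of EpiLCs (d2) where KD and scramble arrays meet. A call is a difference of at least 1.5-fold. There was no test. Members, gene lists and the rule for named genes (all members past the threshold, the brightest of each family, and the 4 genes with the largest range per list) were chosen with earlier results of these data known. Genes outside that rule, among them *Sema4d*, *Efna1*, *Sema3e*, *Plxnb2*, *Plxnd1* and *Ephb4*, were named after their values were seen. One gene of plexin signalling that this rule names is not reported here. Promoter sequences are from RefSeq. Alternatives were a 2-fold threshold, other scalings, other probe set rules and a filter on dim genes. The calling step was tested on simulated data. Python 3.11.15, numpy 2.4.6, pandas 2.3.3 and matplotlib 3.10.9 were used.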

Additional observations from a re-analysis of the deposited data

Results flagged for a closer look

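*Epha2* differed with PRDM14 in opposite directions in the 2 pairs of arrays, by 0.32 relative to EpiLCs (d2) in the scramble arrays and by -0.54 in the arrays labelled KD. The gap between the 2 differences was 0.86. Each pair has 1 array per condition, so the gap was not tested. *Epha2* has a single probe set.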

How the results depend on the processing

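No paired analysis was possible because each condition has 1 array. A renewed quantile normalization of all arrays left every count of members within 1.5 times, as did a median shift in the 5 comparisons that do not set a KD array against a scramble array. Without the shift, 5 members were lower in KD EpiLCs (d2) than in EpiLCs (d2) and 10 in KD EpiLCs + PRDM14 than in EpiLCs + PRDM14, since the KD columns have lower medians. At 2-fold, 0 members were higher and 1 lower in ESCs than in EpiLCs (d2), 1 was lower with PRDM14 than in EpiLCs (d2), 0 were lower in KD EpiLCs (d2) than in EpiLCs (d2), and 1 was higher and 1 lower in KD EpiLCs + PRDM14 than in EpiLCs + PRDM14. With a mean signal of at least 6, the lower members were 1 in ESCs, 1 with PRDM14 relative to day 2 and 1 relative to day 4, because *Epha1* and *Sema4c* were left out, and 1 was higher in KD EpiLCs + PRDM14 than in its counterpart. With the median over a gene's probe sets, 1 member was lower with PRDM14 than in EpiLCs (d2) and 1 was higher in KD EpiLCs (d2) than in EpiLCs (d2). *Epha1* then changed sign with PRDM14, to 0.041 relative to day 2 and 0.078 relative to day 4, and was at -0.10 in ESCs, as its dimmer probe sets set the median, and *Efnb2* was at -0.33 with PRDM14 relative to day 2. With the probe set of the largest range, 2 members were higher at day 4 than at day 2, 5 were lower with PRDM14 than at day 4, 1 was higher in the KD pair, 1 was higher and 2 were lower in KD EpiLCs (d2) than in EpiLCs (d2), and 4 were higher in KD EpiLCs + PRDM14 than in EpiLCs + PRDM14. Counting a gene by any of its probe sets, a rule chosen after seeing the data, gave 3, 6, 1, 2, 2 and 4 for the same counts in that order. Signal over background was not tested for dim members.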
